A study of Mus musculus with 6 samples.

Results

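The 34 genes described here drive, restrain or mark the division cycle of mammalian cells. They were taken by name from a table of read counts for 49315 mouse genes, and all 34 were found and had enough reads to be tested. They were divided by role into 21 proliferation genes and 13 genes that resting cells also express. Proliferation here names the role of the gene and does not mean that only dividing cells make its RNA. The proliferation genes comprised 11 genes of DNA replication and S phase and 10 genes of G2 phase and mitosis. The other 13 comprised 6 G1 cyclins and kinases, 4 inhibitors of cyclin-dependent kinases (CDKs), and the pocket proteins Rb1 and Rbl2 with the kinase Wee1.

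The cell cycle is driven by CDKs, which act only when bound to a cyclin. D-type cyclins pair with Cdk4 and Cdk6 in G1 phase and phosphorylate the retinoblastoma family of pocket proteins, which otherwise hold E2F transcription factors inactive. Freed E2F factors switch on genes for cyclin E and for DNA replication, while cyclin A and cyclin B with Cdk1 carry the cell through G2 phase and mitosis. CDK inhibitors of the Cip/Kip family (Cdkn1a, Cdkn1b, Cdkn1c) and the INK4 family (Cdkn2c) restrain these kinases. Adult cardiomyocytes rarely divide, so RNA of mitotic genes in a healthy adult ventricle is scarce, while D-type cyclins and inhibitors are present in non-dividing cells too.

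RNA was sequenced from the middle of the ventricles of adult mice, with polyadenylated RNA selected and both ends of fragments read. The group labelled TET2KO held 3 libraries from mice whose knockout of Tet2, a dioxygenase that oxidises methylated cytosine in DNA, was restricted to endothelial cells, and the group labelled WT held 3 libraries from wild-type mice. Both groups had received Angiotensin II, a peptide hormone that raises blood pressure, at 1.0 mg/kg/day from minipumps under the skin for 28 days, so no library came from an untreated heart. The sources used here do not give the promoter that drove Cre, the exons removed, the ages of the mice or whether each library came from a separate mouse. Hence p-values measure the spread between libraries and that spread may be technical.

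Tet2 itself was higher in the libraries labelled TET2KO, at 14.6, 8.01 and 10.4 CPM (counts scaled to a common library size), against 4.27, 4.33 and 3.08 CPM in the libraries labelled WT. The log2 fold change was 1.49 ± 0.29 (SE, n = 3 each; adjusted p = 0.0065, edgeR's quasi-likelihood test with Benjamini-Hochberg adjustment). This direction goes against the label, although the count sums all exons and all cell types of the tissue, so the groups are named by their labels throughout. The libraries held 26810691 to 30418909 reads on genes in the group labelled TET2KO and 22124844 to 26569073 in the group labelled WT. They differed by transcript length: the longest 10% of tested genes (from 6549 nt) had medians of 1.82, 0.61 and 1.43 log2 units above the WT mean in the libraries labelled TET2KO, against 0.06, 0.07 and -0.12 in the libraries labelled WT. For the shortest 10% (up to 1094 nt) these medians were -1.68, -0.80 and -1.36 in the libraries labelled TET2KO, against 0.03, -0.15 and 0.14 in the libraries labelled WT. Fold changes of the 34 genes are therefore given as counted and, as a second value, after a smooth dependence on transcript length and GC content was taken out of every library ("trend-removed"). The trend-removed value for Tet2 was 0.27 ± 0.17 and did not pass the test.

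Levels of other cell types also moved with the labels. Summed CPM of 12 endothelial markers was 639 to 1150 in the libraries labelled TET2KO against 573 to 629 in those labelled WT, with 8 markers higher and 3 lower. Trend-removed, 6 were higher and 2 lower, and their median log2 fold change was 0.53 in place of 1.33. Summed CPM of 12 macrophage markers was 310 to 461 in the libraries labelled TET2KO against 697 to 834 in those labelled WT, with 3 higher and 3 lower. Trend-removed, 2 were higher and 4 lower, with a median of 0.2 in place of -0.18. Summed CPM of the 5 tested of 7 red blood cell genes was 165 to 741 in the libraries labelled TET2KO against 1550 to 7040 in those labelled WT. All 5 were lower in both fits. Of all tested genes, 33.4% were higher and 29.4% lower as counted, and 21.9% and 24.3% trend-removed. Cardiomyocyte markers, which define the labelled tissue, summed to 71500 to 77100 CPM in the libraries labelled TET2KO and to 98600 to 119000 CPM in those labelled WT, although more of the 12 markers were higher than lower (6 and 5 as counted, 7 and 2 trend-removed). Smooth muscle and pericyte markers summed to 1430 to 2000 CPM in the libraries labelled TET2KO against 2240 to 2380 in those labelled WT. Of these 10 markers, 4 were higher and 3 lower as counted, with a median log2 fold change of 0.82. Trend-removed, 3 were higher and 4 lower, with a median of 0.36. Of 5 mesothelial markers only 1, the gene Wt1, had enough reads to be tested. It had 3.44 to 5.75 CPM in the libraries labelled TET2KO against 1.06 to 2.17 in those labelled WT. Summed fibroblast markers overlapped between the groups (1820 to 2120 CPM in the libraries labelled TET2KO, 1940 to 2040 in those labelled WT). So did the 5 tested of 10 lymphocyte markers (5.59 to 10.9 CPM in the libraries labelled TET2KO, 9.07 to 14.8 in those labelled WT). None of the markers was at 0 in every library. The part of these differences, or of the length trend, in the results below was not tested. In bulk tissue, fewer cells of a type and less RNA per cell cannot be told apart.

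Promoters of the 34 genes were searched for short motifs known from cell cycle genes, and 5 promoters are printed to show them. The differences between roles in how often they occur were not tested. RefSeq promoters (build GRCm38.p6, 250 bases before to 50 after the transcription start) were found for 25 of the 34 genes, 29 promoters in all. They were searched on both strands for CCAAT, bound by NF-Y, for the cell cycle homology region (CHR) TTTGAA, bound by the repressor complex DREAM, and for TTCCCGC or TTGGCGC, cores of E2F sites. Because both strands were read, a CCAAT match can share bases with an E2F core. Capitals mark these matches below, and each sequence runs 5′ to 3′ on the strand of the gene. The mitotic genes Mki67 (chr7:135716330-135716629, minus strand), Cdk1 (chr10:69352863-69353162, minus strand) and Ccnb2 (chr9:70421505-70421804, minus strand) carry CCAAT and CHR matches. The replication gene Mcm2 (chr6:88898731-88899030, minus strand) carries both as well, and the G1 kinase gene Cdk4 (chr10:127063285-127063584, plus strand) carries none.
Mki67: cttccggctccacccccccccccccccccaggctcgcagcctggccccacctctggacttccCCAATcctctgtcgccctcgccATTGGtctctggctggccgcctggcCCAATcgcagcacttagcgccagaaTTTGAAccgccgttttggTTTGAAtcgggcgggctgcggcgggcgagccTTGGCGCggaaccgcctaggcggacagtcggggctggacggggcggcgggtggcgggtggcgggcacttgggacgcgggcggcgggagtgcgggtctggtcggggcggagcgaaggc
Cdk1: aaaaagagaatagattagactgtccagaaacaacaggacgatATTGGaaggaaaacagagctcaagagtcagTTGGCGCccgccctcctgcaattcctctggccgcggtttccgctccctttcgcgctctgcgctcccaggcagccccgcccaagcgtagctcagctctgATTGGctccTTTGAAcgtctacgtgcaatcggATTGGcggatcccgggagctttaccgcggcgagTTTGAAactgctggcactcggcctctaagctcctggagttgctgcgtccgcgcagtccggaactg
Ccnb2: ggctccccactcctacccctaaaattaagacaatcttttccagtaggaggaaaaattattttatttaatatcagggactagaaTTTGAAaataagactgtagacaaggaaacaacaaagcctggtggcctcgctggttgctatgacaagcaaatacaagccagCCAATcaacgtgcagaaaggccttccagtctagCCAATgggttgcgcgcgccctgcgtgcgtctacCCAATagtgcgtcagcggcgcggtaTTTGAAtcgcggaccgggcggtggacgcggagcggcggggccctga
Mcm2: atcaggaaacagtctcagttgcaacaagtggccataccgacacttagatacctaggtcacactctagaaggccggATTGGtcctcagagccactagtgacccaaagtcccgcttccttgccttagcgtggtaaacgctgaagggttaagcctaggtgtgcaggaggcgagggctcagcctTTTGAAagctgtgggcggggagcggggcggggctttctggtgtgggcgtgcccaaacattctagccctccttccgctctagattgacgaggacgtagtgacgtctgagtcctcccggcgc
Cdk4: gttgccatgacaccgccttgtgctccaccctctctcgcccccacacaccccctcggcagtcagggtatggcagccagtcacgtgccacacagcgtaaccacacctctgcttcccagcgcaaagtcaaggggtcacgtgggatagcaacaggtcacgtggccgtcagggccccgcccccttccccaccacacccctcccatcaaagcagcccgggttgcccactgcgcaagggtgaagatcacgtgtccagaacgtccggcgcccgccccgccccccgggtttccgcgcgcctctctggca

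CCAAT was present in 77.8% of the 18 promoters of proliferation genes and in 36.4% of the 11 promoters of genes of resting cells, against 37.4% of all 32851 promoters. The CHR was in 33.3% of the promoters of proliferation genes and 9.09% of those of resting cells, against 17.9% of all promoters. An E2F core was in 44.4% of the promoters of proliferation genes and 18.2% of those of resting cells, against 6.81% of all promoters. Both CCAAT and the CHR stood in 62.5% of the 8 promoters of G2 and mitosis genes, against 6.95% of all promoters. Among the 10 promoters of replication and S phase genes the CHR stood in 10%, that of Mcm2 alone. A match of letters is a description of the window and not evidence that a factor binds there. No match was found in these windows for Ccne1, E2f1, Rbl1 and Birc5 among the proliferation genes. The only E2f1 window (chr2:154569377-154569676, minus strand) lies inside the gene, whose annotated 5′ end is at 154569892. The bases before that end were not searched, so the missing match does not describe the promoter there. Mcm4, Ccne2, Ccna2, Aurkb, Ccnd1, Ccnd2, Cdkn1c, Rb1 and Wee1 had no entry.

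Of the 34 genes, 12 were higher and 4 lower in the libraries labelled TET2KO at an adjusted p below 0.05, and 18 did not pass. These 16 stood beside 62.9% of all tested genes that passed in either direction. The share higher, 35.3%, was close to the 33.4% of all 14370 tested genes, and the share lower, 11.8%, stood beside 29.4% of all genes. In CPM, all 3 libraries labelled TET2KO lay above all 3 labelled WT for 14 of the 34 genes and below them for 6, against 38.0% and 35.5% of all genes (73.5% without overlap in either direction). The median log2 fold change was 0.54 over the 34 genes and 0.05 over all genes. With the trend removed, 6 of the 34 were higher and 7 lower, against 21.9% and 24.3% of all genes (46.2% in either direction), with medians of 0.35 for the 34 and -0.03 for all. Both fits placed 8 of the 34 past the test in one direction, and none in opposite directions. Of the 14341 genes in both fits, 4691 passed in one direction and 231 in opposite directions. The 12 genes higher and 4 lower were the same 16 that passed in the authors' deposited table, in the same directions.

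The number of calls changed when single libraries were left out, over all tested genes as well. Each such fit had fewer libraries in 1 group. Of all genes, 10894 passed without TET2KO replicate 2, against 9037 with all libraries and 6100 to 7242 without any other single library. Of these calls, 52.8% were higher without TET2KO replicate 2, and 53.3% to 59.1% without any other. Among the 34, the count of genes higher was 17 without TET2KO replicate 2, whose length trend was the weakest of the 3, and 5 to 9 without any other single library: 8 without TET2KO replicate 1, 9 without TET2KO replicate 3, and 7, 8 and 5 when WT replicates 1, 2 and 3 were left out in turn. Scaling also moved them: with total library size in place of TMM factors the median of all genes was 0.47, and 16 of the 34 were higher and 3 lower, with 74.2% of all calls higher in place of 53.2%.

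**Figure D1:**
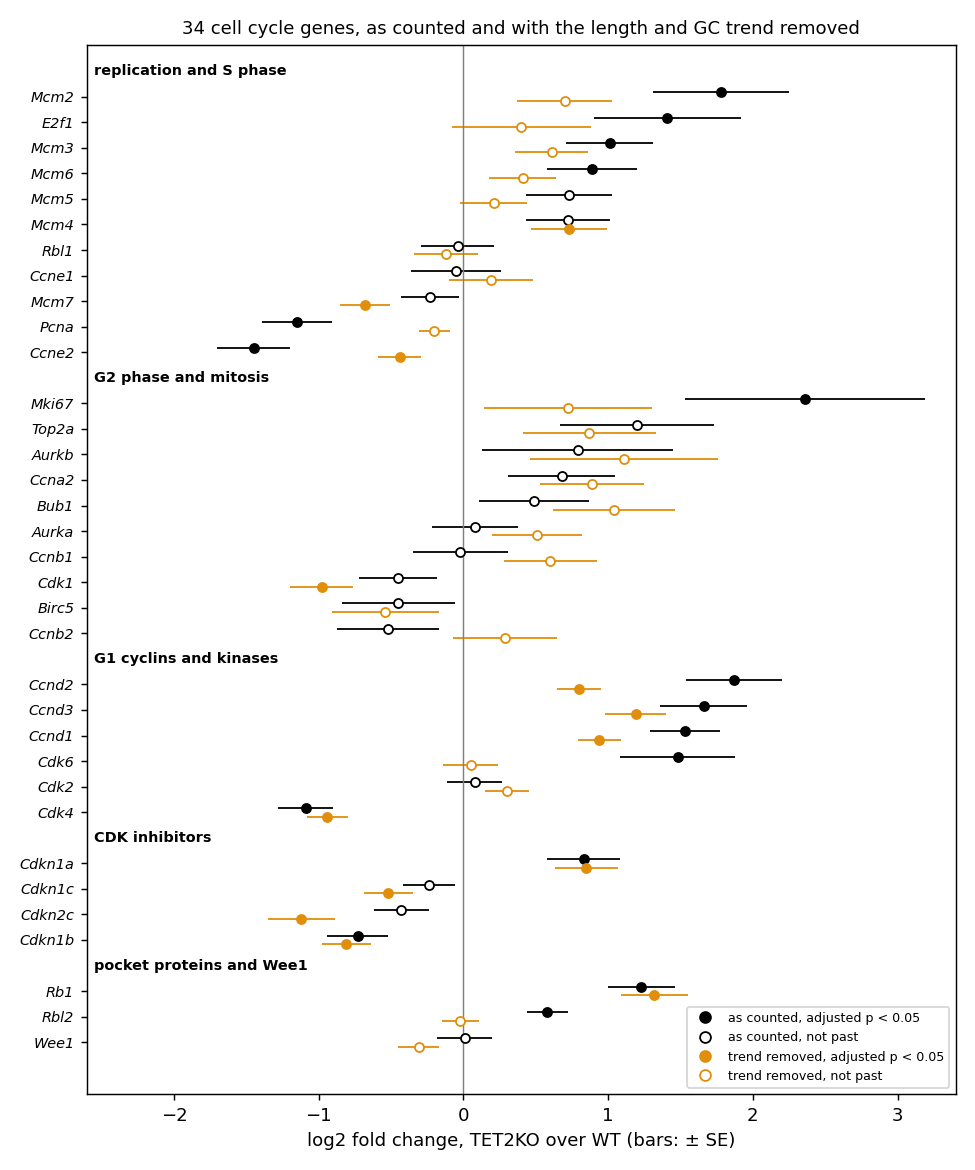
Log2 fold change of each gene, libraries labelled TET2KO over libraries labelled WT, with bars of ± SE; black points are as counted and orange points trend-removed, filled where the adjusted p was below 0.05. Genes are grouped by role: Ccnd1, Ccnd2, Ccnd3, Cdk4, Rb1, Cdkn1a, Cdkn1b and Ccne2 are filled in both colours, while most genes of G2 phase and mitosis are open.

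The D-type cyclins, which start the G1 phase by binding Cdk4 and Cdk6, were all higher in the libraries labelled TET2KO, by 2.9- to 3.66-fold. Ccnd2 (ENSMUSG00000000184, chr6:127125162-127152193, minus strand) had 147, 58.6 and 103 CPM in the libraries labelled TET2KO, against 25.7, 33.2 and 25.5 CPM in those labelled WT. Its log2 fold change was 1.87 ± 0.33 (SE, n = 3 each; adjusted p = 0.0065). The lowest library labelled TET2KO, replicate 2, still lay above the highest labelled WT. Ccnd1 (ENSMUSG00000070348, chr7:144929931-144939925, minus strand) had 81.4, 44.5 and 71.9 CPM in the libraries labelled TET2KO, against 22.8, 24.6 and 20.8 CPM in the libraries labelled WT, a log2 fold change of 1.53 ± 0.24 (adjusted p = 0.0065). Ccnd3 (ENSMUSG00000034165, chr17:47505051-47599691, plus strand) had 44.3, 20.3 and 35.9 CPM in the libraries labelled TET2KO, against 9.03, 12.6 and 10.2 CPM in the libraries labelled WT, a log2 fold change of 1.66 ± 0.30 (adjusted p = 0.0065). For all 3 cyclins the groups did not overlap, and replicate 1 was the highest and replicate 2 the lowest of the libraries labelled TET2KO.

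Trend-removed, Ccnd1 was higher by 0.94 ± 0.15, Ccnd2 by 0.80 ± 0.15 and Ccnd3 by 1.19 ± 0.21 on the log2 scale, and all 3 passed the test. Ccnd1 and Ccnd2 passed in this direction under all 23 alternatives run, and Ccnd3 under 22. Ccnd3 turned to -0.13 where the trend used the length implied by the authors' counts and TPM, which counts its merged exons of 8775 nt in place of a transcript of 2113 nt. Exons of all 3 cyclins share bases with genes on the opposite strand. Ccnd1 shares 1100 nt with LTO1, Ccnd2 740 nt with Gm43126 and 9330179D12Rik, and Ccnd3 361 nt with Bysl. The sources used here do not say whether the counting used strand. The pseudogene Ccnd3-ps makes the count of Ccnd3 less certain.

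The authors' TPM divides by merged exons, here 4709, 9409 and 8775 nt for Ccnd1, Ccnd2 and Ccnd3. Their transcripts have 3740, 6330 and 2113 nt, so the share of each cyclin depends on the length used. On this TPM the 3 D-type cyclins summed to 103, 40.2 and 73.3 TPM in the libraries labelled TET2KO, against 13.4, 17.5 and 12.1 TPM in those labelled WT. Their proportions stayed within a narrow band while the sum differed. Ccnd1 made up 45.5 to 52.5% of the sum in the libraries labelled TET2KO against 51.4 to 56.3% in those labelled WT. Ccnd2 made up 34.6 to 41.2% in the libraries labelled TET2KO against 31.7 to 34.6% in those labelled WT, and Ccnd3 12.9 to 13.5% in the libraries labelled TET2KO against 12.0 to 14.1% in those labelled WT.

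The kinases that these cyclins activate did not move as a group: of the 3 G1 kinases, 1 was lower, 1 higher and 1 did not pass. Cdk4 (ENSMUSG00000006728, chr10:127063534-127067920, plus strand), the partner of D-type cyclins in most tissues, had 42.5, 60.9 and 46.5 CPM in the libraries labelled TET2KO, against 110, 94.3 and 115 CPM in those labelled WT. It was 2.13-fold lower, with a log2 fold change of -1.09 ± 0.19 (adjusted p = 0.0065) as counted and -0.94 ± 0.14 trend-removed, and it passed under all 23 alternatives. The groups did not overlap. Exons of Cdk4 share 641 nt with Tspan31 on the opposite strand.

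Cdk6, a second partner of D-type cyclins, had 10.7, 3.54 and 6.41 CPM in the libraries labelled TET2KO against 2.35, 2.82 and 2.18 CPM in those labelled WT, and it rose by 1.48 ± 0.40 on the log2 scale (adjusted p = 0.015). Its transcript of 11525 nt is the longest among the 34, and its trend-removed value was 0.05 ± 0.19 and did not pass. Leaving out WT replicate 1 (1.45) or 3 (1.41) ended the call. The ratio of Cdk4 to Cdk6 in TPM was 17.2, 74.1 and 31.2 in the libraries labelled TET2KO, against 202, 144 and 227 in those labelled WT, without overlap. Cdk2, which partners cyclin E and cyclin A, had 10.3, 11.9 and 8.76 CPM in the libraries labelled TET2KO, against 9.22, 9.85 and 10.1 CPM in the libraries labelled WT, a log2 fold change of 0.08 ± 0.19 that did not pass (adjusted p = 0.72), with overlapping groups, and its trend-removed value of 0.30 ± 0.15 did not pass either.

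**Figure D2:**
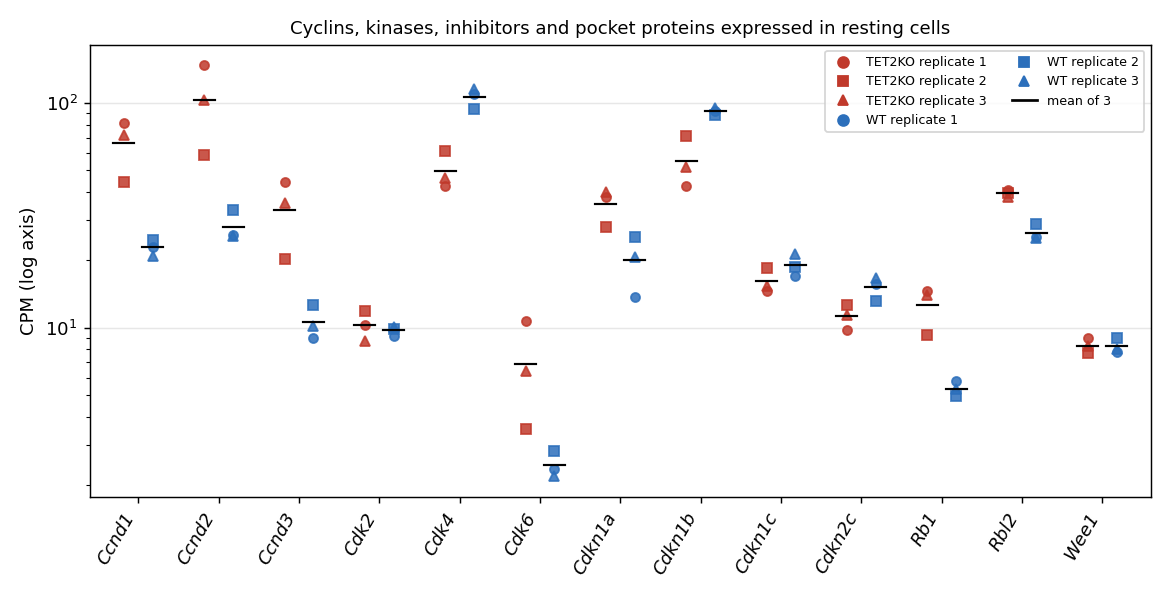
CPM on a log axis for the 13 genes that resting cells express, in each of the 3 libraries labelled TET2KO (red) and the 3 labelled WT (blue), with a bar at each mean. The D-type cyclins, Cdk6, Cdkn1a, Rb1 and Rbl2 lie higher in the libraries labelled TET2KO, Cdk4, Cdkn1b and Cdkn2c lie lower, and Cdk2, Cdkn1c and Wee1 overlap.

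The 4 CDK inhibitors divided by gene, with Cdkn1a higher, Cdkn1b lower and 2 not past the test, and a median log2 fold change of -0.33. The shares higher and lower were 25% each, against 33.4% and 29.4% of all tested genes. Cdkn1a, which encodes p21 and is a target of p53, had 38.0, 28.1 and 40.3 CPM in the libraries labelled TET2KO against 13.7, 25.3 and 20.7 CPM in those labelled WT, a rise of 0.83 ± 0.25 on the log2 scale (adjusted p = 0.023). The groups did not overlap, although TET2KO replicate 2 and WT replicate 2 lay close to each other. Cdkn1b, which encodes p27 and holds cells in quiescence, had 42.8, 71.2 and 51.9 CPM in the libraries labelled TET2KO, against 91.6, 88.7 and 95.0 CPM in the libraries labelled WT, and fell by 0.73 on the log2 scale (SE 0.21, adjusted p = 0.018). These groups did not overlap either. Trend-removed, Cdkn1a was 0.85 ± 0.22 and Cdkn1b -0.81 ± 0.17, and both passed.

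Both calls were lost when some single libraries were left out. Cdkn1a was 0.76 without TET2KO replicate 3, and 0.63 and 0.86 when WT replicate 1 or 3 was left out. Cdkn1b was -0.66 without TET2KO replicate 3, and -0.73, -0.75 and -0.70 when WT replicates 1, 2 and 3 were left out in turn. Cdkn1b also did not pass when scaled by total library size, at -0.31, or on log2(TPM + 1), at -0.12, settings in which the median of all genes was 0.47 and 0.41.

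Cdkn1c, which encodes p57, had 14.5, 18.4 and 15.3 CPM in the libraries labelled TET2KO against 16.9, 18.6 and 21.2 CPM in those labelled WT, with overlap and a log2 fold change of -0.24 ± 0.18 (adjusted p = 0.27). Its trend-removed value was -0.52 ± 0.17 and passed, while on log2(TPM + 1) it was 0.38 and passed in the other direction, so its direction depended on the scale. Cdkn2c, which encodes the INK4 inhibitor p18, had 9.79, 12.6 and 11.4 CPM in the libraries labelled TET2KO, against 15.7, 13.1 and 16.7 CPM in the libraries labelled WT, with a log2 fold change of -0.43 ± 0.19 (adjusted p = 0.080). All libraries labelled TET2KO lay below all labelled WT, and the trend-removed value of -1.12 ± 0.23 passed. Without TET2KO replicate 2 it passed as counted as well, at -0.48.

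Of the pocket proteins, which bind E2F factors and repress their target genes, Rb1 and Rbl2 were higher as counted, and Rbl1, described with the S phase genes, did not pass. Rb1 (ENSMUSG00000022105, chr14:73183673-73325822, minus strand), the retinoblastoma protein, had 14.5, 9.27 and 13.9 CPM in the libraries labelled TET2KO against 5.81, 4.95 and 5.32 CPM in those labelled WT. It rose by 1.23 ± 0.23 on the log2 scale (adjusted p = 0.0065), was 1.32 ± 0.23 trend-removed, and passed under all 23 alternatives. Exons of Rb1 share 896 nt with Rcbtb2 and Lpar6 on the opposite strand. Rbl2, which encodes p130, the pocket protein of quiescent cells, had 40.8, 39.9 and 38.0 CPM in the libraries labelled TET2KO, against 25.3, 29.0 and 25 CPM in the libraries labelled WT, a rise of 0.58 ± 0.14 (adjusted p = 0.011). Neither gene had overlapping groups. Rbl2 was -0.02 ± 0.13 trend-removed, and its call as counted ended when WT replicate 1 (0.55) or 3 (0.54) was left out. Exons of Rbl2 share 1585 nt with Aktip and a predicted gene on the opposite strand. Wee1, the kinase that holds Cdk1 inactive before mitosis, had 8.98, 7.74 and 8.26 CPM in the libraries labelled TET2KO, against 7.78, 9.03 and 8.01 CPM in the libraries labelled WT, with overlap and a log2 fold change of 0.01 ± 0.19 (adjusted p = 0.97), and -0.31 ± 0.14, not past, trend-removed.

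Over the 13 genes of resting cells, 7 were higher (Ccnd1, Ccnd2, Ccnd3, Cdk6, Cdkn1a, Rb1 and Rbl2) and 2 lower (Cdk4 and Cdkn1b), with a median log2 fold change of 0.58. These were 53.8% and 15.4% of the 13, against 33.4% and 29.4% of all tested genes. With the trend removed, 5 were higher and 4 lower, against 21.9% and 24.3% of all genes, and the median was 0.05. The number higher was 4 when WT replicate 1 or 3 was left out, and 6 or 7 without any other single library. The number lower was 3 without TET2KO replicate 2, 2 without TET2KO replicate 1, and 1 without any other single library. The number lower was also 1 under total library size.

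The 11 genes of DNA replication and S phase divided, with 4 higher, 2 lower and 5 not past the test, and a median log2 fold change of 0.72. The shares higher and lower were 36.4% and 18.2%, against 33.4% and 29.4% of all tested genes. The MCM helicase unwinds DNA at replication forks and is built from 6 subunits in equal number. Mcm2 had 9.15, 3.47 and 4.41 CPM in the libraries labelled TET2KO, against 2.11, 1.92 and 0.896 CPM in those labelled WT, and rose by 1.78 ± 0.47 on the log2 scale (adjusted p = 0.013). Mcm3 had 7.77, 4.40 and 5.21 CPM in the libraries labelled TET2KO, against 3.65, 2.37 and 2.63 CPM in the libraries labelled WT, and rose by 1.01 ± 0.30 (adjusted p = 0.022). For both genes TET2KO replicate 1 stood well above replicates 2 and 3, and the groups did not overlap.

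Mcm6 had 10.1, 4.94 and 6.73 CPM in the libraries labelled TET2KO, against 4.32, 4.21 and 3.19 CPM in those labelled WT, and rose by 0.89 ± 0.31 on the log2 scale (adjusted p = 0.035). Mcm4 (0.72 ± 0.29, adjusted p = 0.060) and Mcm5 (0.73 ± 0.30, adjusted p = 0.063) did not pass, although all libraries labelled TET2KO lay above all labelled WT. Mcm7 had 12, 11 and 11.8 CPM in the libraries labelled TET2KO, against 12.1, 11.9 and 16.8 CPM in the libraries labelled WT, with overlap and a log2 fold change of -0.23 ± 0.20 (adjusted p = 0.34). Subunits of one complex thus had different values: scaled by total library size Mcm7 was 0.22, and the 5 others were between 1.15 and 2.21. Trend-removed, Mcm4 passed at 0.73 ± 0.26 and Mcm7 at -0.68 ± 0.17, and Mcm2 (0.70 ± 0.33), Mcm3 (0.61 ± 0.25), Mcm5 (0.21 ± 0.23) and Mcm6 (0.41 ± 0.23) did not. Exons of Mcm7 share 557 nt with Ap4m1, Cops6 and 2 microRNA genes.

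In TPM the 6 subunits summed to 31.0, 15.5 and 20.1 in the libraries labelled TET2KO, against 9.90, 10.2 and 9.75 in those labelled WT. Mcm7 made up 23.7, 36.0 and 32.2% of that sum in the libraries labelled TET2KO, against 42.8, 45.3 and 56.7% in those labelled WT, without overlap. These shares also depend on merged exon length, which is 4426 nt for Mcm7 and 6956 nt for Mcm2, against transcripts of 2962 and 3371 nt. Several calls changed when single libraries were left out, in part without a smaller log2 fold change. Mcm3 did not pass without TET2KO replicate 1 (0.76), WT replicate 2 (0.88) or WT replicate 3 (0.95), and Mcm6 did not pass when any one of TET2KO replicates 1 and 3 (0.60 and 0.97) or WT replicates 1, 2 and 3 (0.97, 0.95 and 0.77) was left out, and passed at 1.13 without TET2KO replicate 2. Mcm4 (0.93) and Mcm5 (0.95) passed without TET2KO replicate 2.

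Pcna, the sliding clamp of DNA polymerases, and Ccne2, a cyclin E that activates Cdk2 at the start of S phase, were the 2 lower genes. Pcna had 37.2, 65.9 and 44.7 CPM in the libraries labelled TET2KO, against 107, 96.7 and 124 CPM in those labelled WT, and fell by 1.15 on the log2 scale (SE 0.24, adjusted p = 0.0068). Its transcript of 1518 nt is the shortest of the 34, its trend-removed value was -0.20 ± 0.11 and did not pass, and reads of its pseudogenes Pcna-ps1 and Pcna-ps2 may be assigned to it or taken from it. Pcna had the highest mean TPM of the 34 in both groups. The ratio of Pcna to Mki67 in TPM was 30.1, 552 and 67.8 in the libraries labelled TET2KO. It was 493, 1650 and 1030 in those labelled WT, with overlap. Which cells made the Pcna RNA was not tested. Ccne2 had 2.67, 4.6 and 3.33 CPM in the libraries labelled TET2KO, against 9.51, 9.52 and 9.91 CPM in the libraries labelled WT, and fell by 1.45 (SE 0.25, adjusted p = 0.0065). Neither gene had overlapping groups. Trend-removed, Ccne2 passed at -0.44 ± 0.15. Its exons share 609 nt with Ints8 on the opposite strand.

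The related cyclin gene Ccne1 averaged 1.44 ± 0.108 CPM in the libraries labelled TET2KO and 1.49 ± 0.495 CPM in those labelled WT (SD, n = 3 each), a log2 fold change of -0.05 ± 0.31 that did not pass (adjusted p = 0.89), nor did the trend-removed 0.19 ± 0.29. E2f1, an activating E2F factor, had 60, 26 and 18 reads in the libraries labelled TET2KO against 11, 6 and 7 reads in those labelled WT. That corresponded to 1.62, 0.867 and 0.572 CPM in the libraries labelled TET2KO against 0.528, 0.245 and 0.392 CPM in those labelled WT, and to a rise of 1.41 ± 0.51 on the log2 scale (adjusted p = 0.042). Its groups did not overlap in CPM, the trend-removed value was 0.40 ± 0.48 and did not pass, and its call as counted ended when TET2KO replicate 1 (0.92) or WT replicate 1 (1.70), 2 (1.14) or 3 (1.42) was left out. Rbl1, which encodes p107, the pocket protein of cycling cells, was -0.04 ± 0.25 (adjusted p = 0.89) and overlapped, and was -0.12 ± 0.22 trend-removed, not past.

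**Figure D3:**
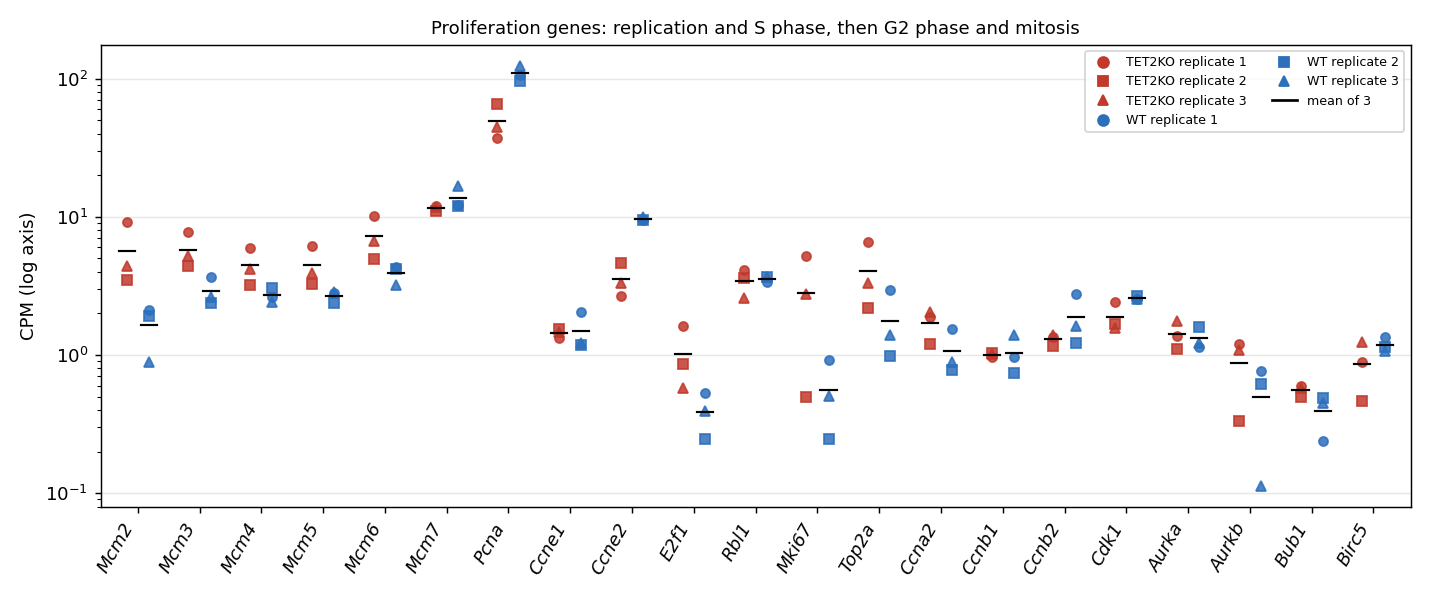
CPM on a log axis for the 21 proliferation genes, in each of the 3 libraries labelled TET2KO (red) and the 3 labelled WT (blue), with a bar at each mean. TET2KO replicate 2 (red square) is the lowest of its group for 14 of the 21 genes, and the genes from Mki67 onwards mostly overlap between the groups.

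The 10 genes of G2 phase and mitosis were close to the limit of detection, with 10 to 245 reads per library in the group labelled TET2KO and 2 to 65 in the group labelled WT, and 1 passed the test. That gene, 10% of the list, was higher, against 33.4% of all tested genes higher and 29.4% lower. Mki67, which coats mitotic chromosomes and is the common histological marker of cycling cells, had 192, 15 and 87 reads in the libraries labelled TET2KO against 19, 6 and 9 reads in those labelled WT. In CPM these were 5.18, 0.5 and 2.76 in the libraries labelled TET2KO against 0.912, 0.245 and 0.504 in the libraries labelled WT. TET2KO replicates 1 and 3 were high, and replicate 2 lay within the WT range. The log2 fold change was 2.36 ± 0.83 (adjusted p = 0.038) as counted and 0.72 ± 0.58, not past the test, with the trend removed, and the transcript is 10061 nt long. As counted it was 2.89 without TET2KO replicate 2, and the call ended when TET2KO replicate 1 (1.60) or 3 (2.41), or WT replicate 1 (2.94), 2 (1.98) or 3 (2.31), was left out.

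None of the other 9 passed as counted. Top2a, the topoisomerase that untangles replicated DNA, had 6.61, 2.20 and 3.33 CPM in the libraries labelled TET2KO against 2.93, 0.981 and 1.40 CPM in those labelled WT, with overlap and a log2 fold change of 1.2 ± 0.53 (adjusted p = 0.079). It passed without TET2KO replicate 2 (1.53) and without WT replicate 1 (1.78), and so did Ccna2, cyclin A, without TET2KO replicate 2 (0.90, against 0.68 ± 0.37 with all libraries). Aurkb, the kinase of the chromosomal passenger complex, was 0.79 ± 0.66 with all libraries and passed without TET2KO replicate 2 (1.18). Birc5, survivin, a subunit of the same complex, was -0.45 ± 0.39, and Bub1, a kinase of the spindle checkpoint, was 0.49 ± 0.38. Cyclins Ccnb1 (-0.02 ± 0.33) and Ccnb2 (-0.52 ± 0.35) and the spindle pole kinase Aurka (0.08 ± 0.30) did not pass as counted or under any of the 23 alternatives, and neither did Birc5. The pseudogenes Ccnb1-ps and Ccnb2-ps make the counts of their parent genes less certain.

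Cdk1, the kinase that triggers mitosis, had 2.40, 1.67 and 1.56 CPM in the libraries labelled TET2KO against 2.54, 2.66 and 2.52 CPM in those labelled WT, without overlap, and a log2 fold change of -0.45 ± 0.27 (adjusted p = 0.17) as counted. With the trend removed its log2 fold change was -0.98 ± 0.22 and passed, as the only gene of the 10, but it did not pass where the trend used the length implied by counts and TPM (-0.36). The trend-removed median of the 10 genes was 0.66, and 7 of them, all but Cdk1, Birc5 and Ccnb2, had trend-removed values between 0.51 and 1.11 that did not pass.

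Over the 21 proliferation genes, 5 were higher (Mcm2, Mcm3, Mcm6, E2f1 and Mki67), 2 lower (Pcna and Ccne2) and 14 did not pass, with a median log2 fold change of 0.49. These were 23.8% and 9.52% of the 21, against 33.4% and 29.4% of all tested genes. With the trend removed, 1 was higher (Mcm4) and 3 were lower (Mcm7, Ccne2 and Cdk1), against 21.9% and 24.3% of all genes. The trend-removed median of the 21 was 0.41. TET2KO replicate 1 was the highest of the 3 libraries labelled TET2KO for 13 of these genes, and replicate 2 the lowest for 14. Per library, the median over the 21 genes stood 0.60, 0.02 and 0.54 log2 units above the WT mean in TET2KO replicates 1, 2 and 3, and at 0.14, -0.18 and -0.13 in WT replicates 1, 2 and 3. Over the 13 genes of resting cells the median in replicate 2 was 0.50. The value of 0.02 is a median over genes that went both ways: TET2KO replicate 2 lay above all libraries labelled WT for Mcm2 to Mcm6, E2f1 and Bub1, and below them all for Mcm7, Pcna, Ccne2, Ccnb2, Cdk1, Aurka and Birc5. The number higher was 10 without TET2KO replicate 2, 3 without TET2KO replicate 3 or WT replicate 1, and 1 when TET2KO replicate 1 or WT replicate 2 or 3 was left out. The number of all genes past the test also rose without TET2KO replicate 2 and fell without any other library, as given above. Endothelial markers were also lowest in TET2KO replicate 2 among the libraries labelled TET2KO, at 639 CPM beside 1150 and 963, and so was the length trend, and neither was tested as a source of the difference.

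**Figure D4:**
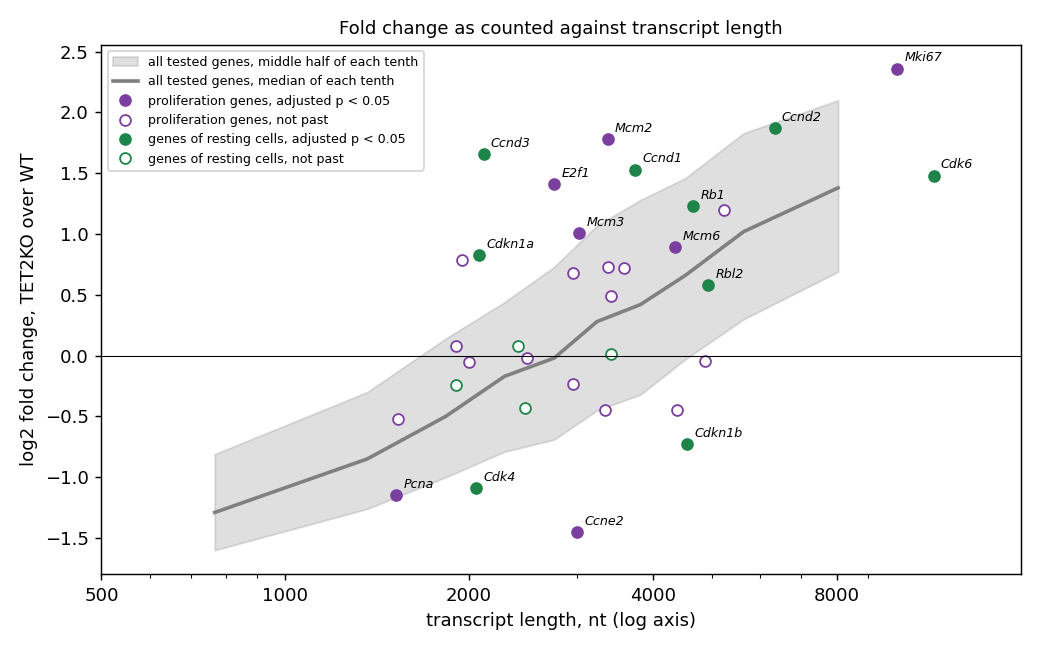
Log2 fold change as counted, libraries labelled TET2KO over libraries labelled WT, against transcript length in nt on a log axis, for proliferation genes (purple) and genes of resting cells (green), filled where the adjusted p was below 0.05. The grey line and band give the median and the middle 50% of all tested genes in 10 bins of length. Genes above the band include Ccnd3, Ccnd1, Mcm2, E2f1 and Cdkn1a, and those below it include Cdk4, Cdkn1b, Ccne2 and Cdk1.

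Across all tested genes the fold change as counted increased with transcript length (Spearman 0.612), and length with GC content held 58% of its variance. Across the 34 genes, which share these 6 libraries and this trend, the same correlation was 0.446 as counted and 0.12 with the trend removed, given as a description. Mki67, Cdk6 and Ccnd2, among the longest of the 34, had large positive values, while Pcna and Ccnb2, the shortest, had negative ones. Rbl1 at 4862 nt, Cdk1 at 4375 nt and Cdkn1b at 4552 nt were long and had no positive value.

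Compared in TPM, per length of merged exons, the 4 CDK inhibitors had higher means than all 10 genes of G2 phase and mitosis in both groups. The order of genes below depends on that length. All libraries labelled TET2KO lay above all labelled WT in TPM for 24 of the 34 genes and below them for 3 (Pcna, Ccne2 and Cdk4), against 56.8% and 16.5% of all genes. In the libraries labelled TET2KO the highest means were Pcna at 49.4, Cdkn1a at 39.4, Cdk4 at 37.3, Ccnd1 at 34.9, Cdkn1b at 29.3 and Ccnd2 at 27.6 TPM. In the libraries labelled WT they were Pcna at 71.2, Cdk4 at 51.3, Cdkn1b at 31.7, Cdkn1c at 14.6 and Cdkn1a at 14.2 TPM. The lowest mean was Bub1 at 0.314 TPM in the libraries labelled TET2KO and Mki67 at 0.0852 TPM in those labelled WT. Means under 1 TPM were found for 6 genes in the group labelled TET2KO and 13 in the group labelled WT. Neighbours in the order mostly overlapped between libraries: 3 of 33 neighbouring pairs were separate in the group labelled TET2KO and 6 of 33 in the group labelled WT.

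**Figure D5:**
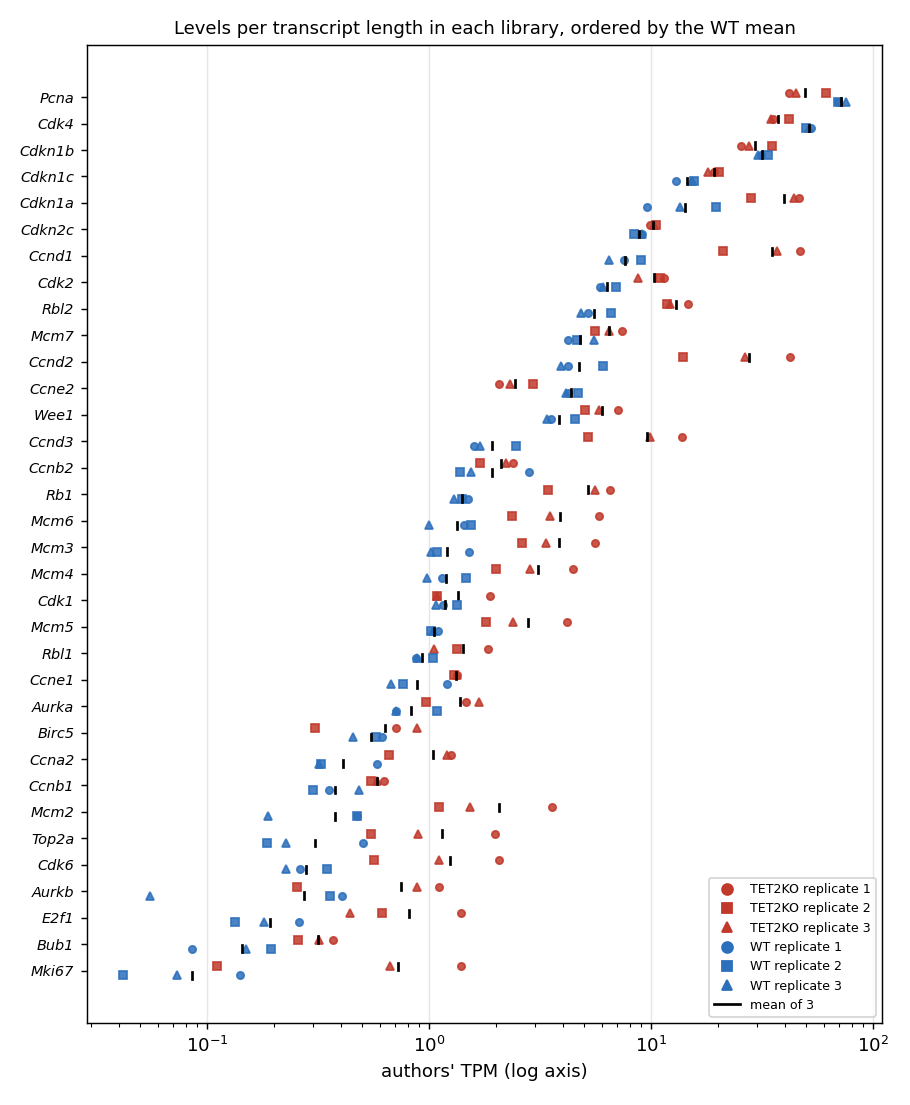
The authors' TPM on a log axis for each of the 34 genes in the libraries labelled TET2KO (red) and WT (blue), with a bar at each mean, ordered by the WT mean. Pcna and Cdk4 lead, Mki67 and Bub1 are last, and the red points of Ccnd1, Ccnd2, Ccnd3 and Cdkn1a lie well to the right of the blue ones.

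The other genes of the cell cycle, taken from 6 lists of 203 genes of which 186 were tested, had 42 higher and 50 lower and a median log2 fold change of -0.06. These were 22.6% and 26.9% of the tested genes of the lists, against 33.4% and 29.4% of all tested genes, and those same shares of all genes stand behind each list below. Trend-removed, the counts were 24 and 39, against 21.9% and 24.3% of all genes, and 5 genes passed in opposite directions in the 2 fits (Pold1, Timeless, Pttg1, Fzr1 and Ddb1). Among the 14341 genes in both fits, 231 did so. Of 44 other replication genes, 5 were higher and 18 lower (11.4% and 40.9%), with a median of -0.51, and the trend-removed counts were 2 and 14. Rfc1, the large subunit of the loader of the Pcna clamp, rose by 1.43 ± 0.22 (trend-removed 0.91 ± 0.14, past the test), and Rpa3, the small subunit of the protein that covers single-stranded DNA, was -1.90 ± 0.31 (trend-removed -0.79 ± 0.14, past the test). Also higher as counted were Uhrf1 (2.06), Cdt1 (1.88), Pold1 (0.91) and Timeless (0.65), and these 4 were chosen after their values were seen. Trend-removed, Uhrf1 (1.16) and Cdt1 (1.30) did not pass, and Pold1 (-0.78) and Timeless (-0.71) passed in the opposite direction. The origin recognition subunits Orc2 to Orc6 were all among the 18 lower, at -0.66, -0.90, -1.41, -0.96 and -1.04 for Orc2, Orc3, Orc4, Orc5 and Orc6, and were also named after their values were seen. Trend-removed, Orc2 (-0.52) and Orc4 (-0.80) passed, and Orc3, Orc5 and Orc6 did not.

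Of 53 other mitosis genes, 9 were higher and 10 lower (17% and 18.9%), with a median of 0.10, while the trend-removed counts were 8 and 3. Ncapd2, a subunit of condensin, rose by 1.88 ± 0.38 as counted but did not pass trend-removed (0.47 ± 0.19), and Cenpa, the histone of centromeres, was -1.55 ± 0.26 as counted and -0.66 ± 0.12 trend-removed, past the test in both. Pttg1, named after its values were seen, was -0.51 as counted and 0.35 trend-removed. Of 64 listed, 11 had too few reads to be tested, among them Plk1, Foxm1 and Mybl2. Of 31 other cyclins, kinases and phosphatases, 16 were higher and 7 lower (51.6% and 22.6%), and the trend-removed counts were 7 and 5. Cdk19, a kinase of the Mediator complex, rose by 1.56 ± 0.22 (trend-removed 0.81 ± 0.15), and Cdk7, the kinase that activates other CDKs, was -1.12 ± 0.19 (trend-removed -0.30 ± 0.10), and both passed in both fits.

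Of 12 tested E2F and DREAM genes, 2 were higher and 4 lower (16.7% and 33.3%), and the trend-removed counts were 2 and 3. Those higher were E2f4 at 0.81 ± 0.18, a repressive E2F factor, and E2f3 at 1.13, and those lower were Rbbp4 at -1.13 ± 0.23, a histone-binding subunit, E2f5 at -1.01, Lin52 at -0.97 and E2f6 at -1.03. Trend-removed, E2f4 (0.72 ± 0.14), Rbbp4 (-1.24 ± 0.20) and E2f6 (-0.84) passed in the same directions, and E2f3 (0.19), E2f5 (-0.26) and Lin52 (-0.31) did not pass. Of 23 genes of cyclin and inhibitor turnover, 6 were higher and 7 lower (26.1% and 30.4%), and the trend-removed counts were 3 and 10. Anapc11, the RING subunit of the anaphase-promoting complex, was -1.51 ± 0.28 as counted and -2 trend-removed, and Fzr1, an activator of that complex, was 1.01 ± 0.22 as counted and -0.36 trend-removed, past the test in opposite directions. Ddb1, named after its values were seen, was 0.58 as counted and -0.44 trend-removed. Of 24 other inhibitors and p53 targets, 4 were higher and 5 lower (16.7% and 20.8%), and the trend-removed counts were 2 and 5. Trp53, which encodes p53, the activator of Cdkn1a, was 2.00 ± 0.37 as counted and 2.26 trend-removed, and Bax, a p53 target that promotes apoptosis, was -0.80 ± 0.18 as counted and -0.55 ± 0.13 trend-removed, past the test in both. The 3 others higher were Mdm4 (1.05), Zmat3 (2.23) and Sesn2 (1.73), and the 4 others lower were Ccng1 (-1.27), Cdkn2d (-0.73), Gadd45g (-0.86) and Ei24 (-0.55). Trend-removed, Ccng1 (-0.80) passed, and Mdm4 (0.31), Zmat3 (0.78), Sesn2 (0.19), Cdkn2d (-0.25), Gadd45g (-0.27) and Ei24 (-0.31) did not.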

How the data were processed

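Libraries were poly(A)-selected and sequenced in pairs, per the labels' protocols. Per the submitters' processing notes, Trimmomatic 0.36, STAR 2.5.2b, featureCounts of Subread 1.5.2 and DESeq2 were used with GRCm38 (mm10), with order, settings, strand and annotation release all not given in the sources used here. Deposited by the authors were raw counts per gene, TPM, and a results table. That table holds the authors' log2 fold changes and p-values, of which only its calls were compared, and a signal per library, which per the deposited values is the raw count divided by 1 size factor and was not used in a test. Genes were tested on the deposited counts with edgeR 4.0.16 (TMM factors, filterByExpr, robust quasi-likelihood F-test, Benjamini-Hochberg over all 14370 tested genes, threshold 0.05). CPM here are scaled by TMM factors. The trend-removed fit entered per-library smooth trends in transcript length and GC content (mgcv 1.9.3, basis size 6 per axis, log2 CPM with prior count 2, transcripts of GENCODE M21) as offsets for 14341 genes. The alternatives used limma 3.58.1 (log2(TPM + 1) with pseudocount 1) and DESeq2 1.42.0. Scripts were tested on simulated data. The 34 genes and all lists were chosen with earlier results of these data known. From each role the 2 genes with the smallest p in each direction, and all G1 genes and inhibitors, have every library's value; from each other list 1 gene per direction is named by rule, and the further genes of those lists were named after their values were seen. All libraries carry the same batch label.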

Additional observations from a re-analysis of the deposited data

How the results depend on the processing

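Alternatives moved the counts of genes past the test more than the directions. Settings that only exchanged size factors, filters or DESeq2 left every one of these counts within 1.5 times its value. With total library size, 9 proliferation genes were higher and 1 gene of resting cells lower. With limma-voom 2 proliferation genes were higher. On log2(TPM + 1), 18 of the 34 genes and 8 proliferation genes were higher and 1 gene of resting cells was lower. Of all 14370 tested genes, 9026 passed on log2(TPM + 1), 79.3% of them higher. The corresponding values were 8804 and 74.2% with total library size, 8878 and 51.1% with limma-voom, and 9037 and 53.2% in the main fit. With the trend removed, 6 of the 34 were higher and 7 lower, 1 proliferation gene was higher and 4 genes of resting cells lower. With the trend fitted on the length implied by counts over TPM, 7 of the 34 and 2 proliferation genes were higher. Of all 14341 genes in these 2 fits, 6624 and 7378 passed, with 47.4% and 47.9% of the calls higher. The replicate block, with the replicate number as a term, gave 7618 of all genes past the test, against 9037 without it, and 12 of the 34 higher and 4 lower, with Mcm6 losing its call (0.84) and Top2a gaining one (1.19). The replicate block with the trend removed gave 5722 of all genes, with 8 of the 34 and 3 proliferation genes higher and 4 genes of resting cells lower. The same-numbered libraries did not deviate together as counted (correlations of 0.039, -0.231 and -0.013). This cannot decide whether the numbers pair them, because these deviations also hold the length trends of the libraries.

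Leaving out 1 library at a time gave 6100 to 10894 of all genes past the test, 5 to 17 of the 34 higher and 3 to 5 lower, 1 to 10 proliferation genes higher and 2 lower, and 4 to 7 genes of resting cells higher and 1 to 3 lower. With the trend removed as well, all genes past the test numbered 4909, 8486 and 4031 without TET2KO replicates 1, 2 and 3 and 4210, 4894 and 4273 without WT replicates 1, 2 and 3, with 4 to 13 of the 34 higher and 5 to 7 lower, 0 to 8 proliferation genes higher and 2 to 3 lower, and 4 to 5 genes of resting cells higher and 3 to 4 lower.

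For the genes refitted under every alternative, a change of sign was counted where the value passed in either fit. Ccnd3 turned to -0.13 with length from counts over TPM, and Cdkn1c to 0.38 on log2(TPM + 1). Rbl2 was -0.02 trend-removed, -0.01 with length from counts over TPM and -0.02 with the replicate block and trend removed, and -0.15, -0.06 and -0.01 in 3 trend-removed fits without 1 library. Cdk6 was -0.08 and -0.00 in 2 such fits. Fzr1 was -0.36 trend-removed, -0.36 with length from counts over TPM and -0.37 with the replicate block and trend removed, and -0.32, -0.45, -0.30, -0.35, -0.36 and -0.37 in the 6 trend-removed fits without 1 library. Of the other listed genes, Pold1 (-0.78), Timeless (-0.71), Ddb1 (-0.44) and Pttg1 (0.35) also passed in the opposite direction trend-removed. The cause of these changes was not tested. Ccne1, Rbl1, Ccnb1, Ccnb2, Aurka and Birc5 passed under none of the 23 alternatives, and low read counts limit what could be detected for the mitotic genes.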
